A study of Homo sapiens with 4 samples.

Results

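The sites described here lie over 3 copies of the 45S ribosomal RNA unit on the short arm of human chromosome 21. A listed site belonged to them when at least 1 of its bases fell in RNA45SN1 (chr21:8433222-8446572), RNA45SN2 (chr21:8205988-8219302) or RNA45SN3 (chr21:8389035-8402343), on either strand. In all, 250 of 17625 sites did so, which is 1.42% of the list. RNA45SN1 held 87 of them, RNA45SN2 77 and RNA45SN3 86. LACE-seq reads the ends of cDNA made from RNA that an antibody has pulled down. Here it was applied to NCI-H1299, an established line of human lung cancer. There were 2 libraries of an anti-P5CS antibody and 2 of IgG, which serves as a control without a target. P5CS, encoded by ALDH18A1, makes the precursor of proline from glutamate, and the series title presents it as a noncanonical RNA-binding protein that regulates translation. The labels give no treatment or time for any library. The deposited list has no value per library and no score, on the build hg38, so there is no replicate error and no comparison of P5CS with IgG. The sources used here do not say whether sites also found with IgG had been removed.

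RNA polymerase I copies each 45S unit in the nucleolus as 1 long precursor. From its start it holds the 5' external spacer, 18S, the first internal spacer (ITS1), 5.8S, the second internal spacer (ITS2), 28S and the 3' external spacer. The spacers are cut out and destroyed while 18S goes to the small ribosomal subunit and 5.8S and 28S to the large one. Ribosomal RNA is the most abundant RNA of a cell, and it is a frequent background in experiments that recover RNA with an antibody. The copies of the unit are nearly identical, so that the origin of a read among them is uncertain. A site in one copy therefore does not show which copy gave the RNA. In each unit 18S lies at the lower end, so the precursor has the sequence of the plus strand. Whether the strand column of the list gives the strand of the RNA or of the cDNA read is not stated.

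Short stretches of sequence help to read the map, and they come from microRNA hairpins that RefSeq places in or beside RNA45SN1 on GRCh38.p14. The hairpin of MIR10396B lies on the plus strand in the 5' external spacer, at chr21:8436324-8436374, which is bases 3103 to 3153 of the unit. It is shown because a stretch without sites, met again near the same distance in the other copies, falls on it. The hairpin of MIR6724-4 lies on the plus strand at chr21:8432530-8432621, between 692 and 601 bases ahead of the unit, and shows the thinner coverage there. The hairpin of MIR10396A, at chr21:8987617-8987665 outside the units, is a close relative of MIR10396B. Capitals mark the bases under a listed site, and the sequences run 5' to 3'.
MIR10396B: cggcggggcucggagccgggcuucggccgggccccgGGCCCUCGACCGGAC
MIR10396A: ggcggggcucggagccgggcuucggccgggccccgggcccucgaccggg
MIR6724-4: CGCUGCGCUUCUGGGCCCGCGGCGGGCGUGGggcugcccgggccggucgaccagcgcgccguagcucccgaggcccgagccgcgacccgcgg
Of the 51 bases of MIR10396B, 36 had no site and the last 15 were under a minus-strand site that runs on through the start of 18S. MIR10396A shares a run of 48 bases with it and had no site over its 49 bases. Of the 92 bases of MIR6724-4, 31 were covered, by 1 minus-strand site. G and C make up 86.3% of the MIR10396B hairpin, 87.8% of MIR10396A and 83.7% of MIR6724-4.

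**Figure D1:**
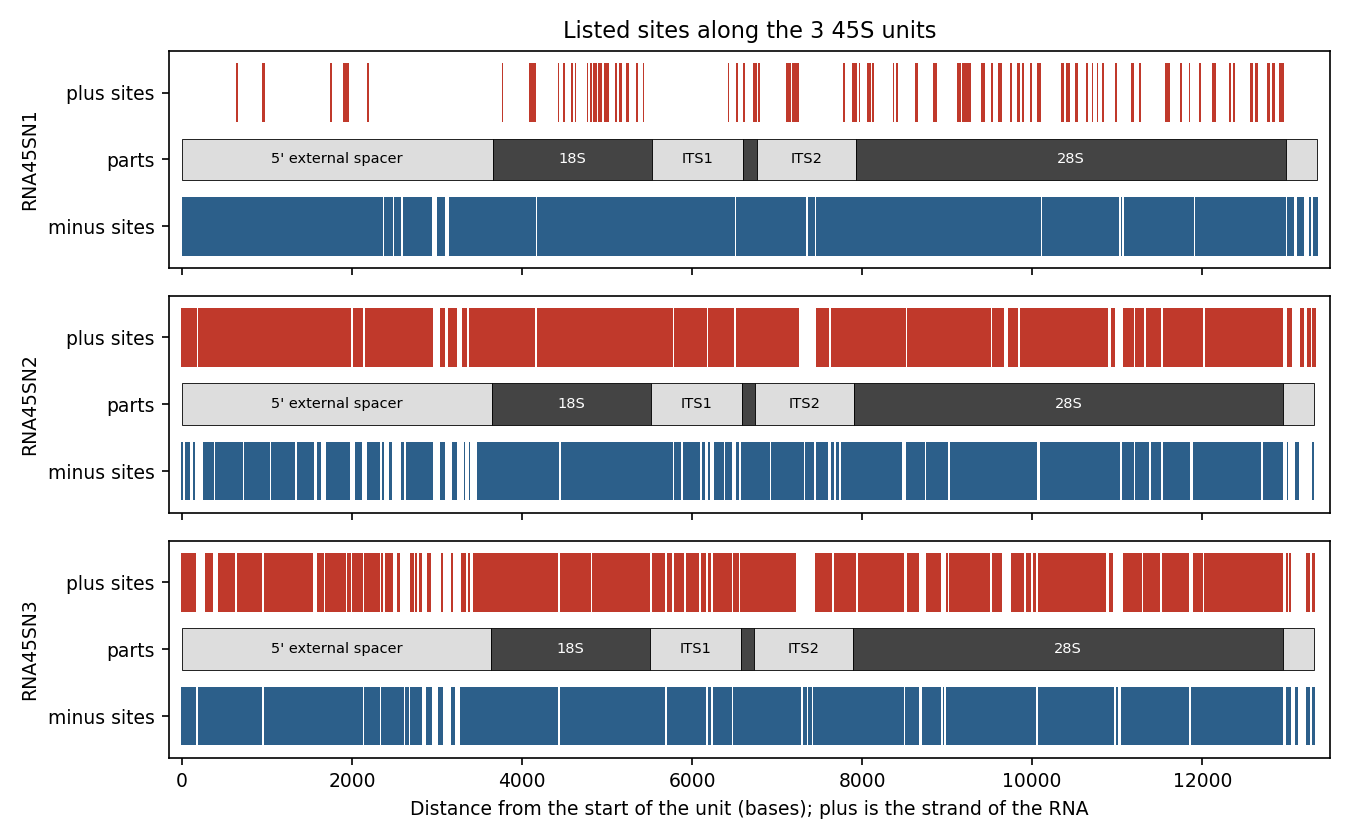
Each block is 1 listed site, drawn to scale against the distance in bases from the start of its unit, with plus-strand sites above and minus-strand sites below the parts of the unit (mature RNAs dark, spacers light). RNA45SN1 has near-continuous minus-strand sites and scattered plus-strand sites, whereas RNA45SN2 and RNA45SN3 are densely covered on both strands.

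The mature RNAs were covered more fully than the spacers, in each of the 3 copies. Taken over both strands, sites lay over 98.5% of the mature bases and 94.6% of the spacer bases of RNA45SN1, over 99.2% and 91.6% in RNA45SN2, and over 97.0% and 88.8% in RNA45SN3. Spacers hold 18722 of the bases of the 3 units and mature RNAs 21253, but 80.6% of the bases without a site were in spacers. The order of the copies is no ranking of expression, since the list records whether a base is in a site and not how many reads it had.

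18S, the RNA of the small subunit, had sites over 99.0% of its bases in RNA45SN1, 100% in RNA45SN2 and 99.0% in RNA45SN3. Only 38 of its bases in the 3 copies together had no site. The 5.8S RNA, which pairs with 28S in the large subunit, was covered in full in all 3 copies. 28S, the main RNA of the large subunit and the site of peptide bond formation, was covered over 98.3%, 98.9% and 96.2% of its length in RNA45SN1, RNA45SN2 and RNA45SN3. It also held more sites than any other part when each site was given to the part that had most of its bases, 91 of 250, and it is the longest part. The 5' external spacer held 69 sites, 18S 26, ITS1 22, ITS2 21, the 3' external spacer 19 and 5.8S 2. Of the 250 sites, 23 reached across a border between parts, at most over 3 parts.

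Among the spacers, ITS1, which separates 18S from 5.8S, was covered over 98.2%, 94.7% and 92.9% of its bases in the same order of copies. ITS2, which separates 5.8S from 28S, reached 96.7%, 95.1% and 95.1%. The 5' external spacer, whose early cleavage opens the processing of the precursor, reached 95.8%, 93.1% and 89.8%. The 3' external spacer stood apart from all of these in the 3 copies together, with 56.2% of its bases under a site, and no site that had most of its bases there was wider than 81 bases. It is a short part, of 361 bases in RNA45SN1, and the list places every site on a grid of 20 bases.

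**Figure D2:**
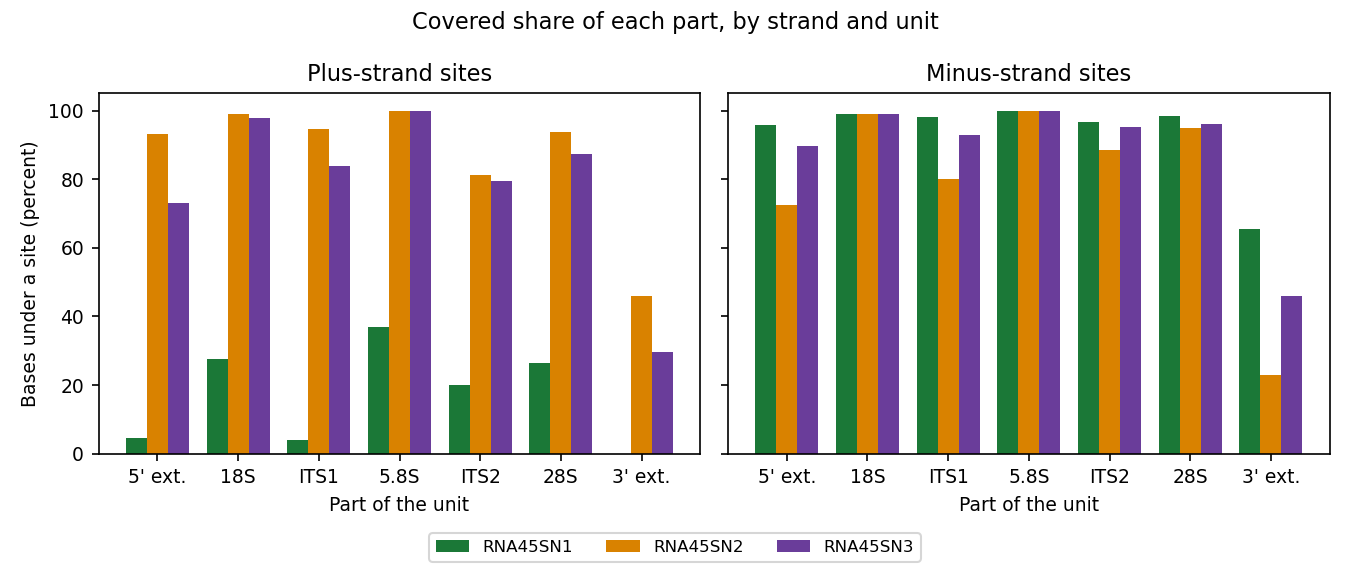
Bars give the percent of bases of each part that lie under a plus-strand site (left) or a minus-strand site (right), for the 3 units, with ext. for external spacer. Minus-strand coverage of 18S is 99.0% in each unit, and plus-strand coverage of RNA45SN1 is at most 36.9% in any part.

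The number of sites and their extent gave opposite orders for the strands. Of the 250 sites 98 were on the minus strand, opposite to the precursor, or 39.2% (exact binomial 95% interval 33.1 to 45.6, counting error only and too narrow, since sites of 1 repeat are not independent). In bases the minus strand led, with 91.9% of the 3 units under a minus-strand site and 64.0% under a plus-strand site. In RNA45SN1 the 18 minus-strand sites had a summed width of 12918 bases and the 69 plus-strand sites one of 2349 bases. In RNA45SN2 the 49 minus-strand sites summed to 11429 bases and the 28 plus-strand sites to 12288. In RNA45SN3 the 31 minus-strand sites summed to 12431 bases and the 55 plus-strand sites to 11015. The strand with fewer sites was thus the more fully covered one in each copy, in fewer and longer pieces.

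Sites of one strand were nested in those of the other. Each of the 69 plus-strand sites of RNA45SN1 and each of the 55 of RNA45SN3 lay wholly inside a minus-strand site. No base of these copies was thus covered by the plus strand alone. Minus-strand sites covered 96.7% of RNA45SN1 and 93.2% of RNA45SN3, which left little room for a plus-strand site outside them. In RNA45SN2 39 of 49 minus-strand sites lay inside a plus-strand site, and 6 of 28 plus-strand sites lay inside a minus-strand site. There, 9.88% of bases were covered by the plus strand alone and 3.56% by the minus strand alone. In RNA45SN1 0 of 18 and in RNA45SN3 6 of 31 minus-strand sites lay inside a plus-strand one. Over the 3 copies, 130 of 152 plus-strand sites (85.5%) and 45 of 98 minus-strand sites (45.9%) were nested. In the rest of the list 54.3% of 8356 plus-strand sites and 45.1% of 9019 minus-strand sites lay inside a site of the other strand. Sites with identical coordinates on both strands count as nested, and they made up 39.8% of the rest of the list and 14 of the 250 sites over the units. No test was made of these differences, because the sites of 1 copy are not independent of each other and the list holds no libraries to compare.

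Coverage on both strands at once differed between the copies and between their parts. It reached 17.6% of RNA45SN1, 82.2% of RNA45SN2 and 82.5% of RNA45SN3. In RNA45SN1 the plus-strand sites fell mainly on the mature RNAs, with 26.9% of mature bases under one against 7.05% of spacer bases. There they covered 27.6% of 18S, 36.9% of 5.8S and 26.3% of 28S, but 4.52% of the 5' external spacer, 4.09% of ITS1, 19.9% of ITS2 and none of the 3' external spacer. The longest stretch of RNA45SN1 without a plus-strand site ran over 1559 bases, from base 2200 of the 5' external spacer into 18S. In RNA45SN2 the plus strand covered 95.3% of mature bases and 88.4% of spacer bases, and in RNA45SN3 90.4% and 73.6%. Minus-strand coverage was also higher over mature RNAs than over spacers, at 98.5% and 94.6% in RNA45SN1, 96.2% and 74.0% in RNA45SN2, and 97.0% and 88.8% in RNA45SN3.

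The stretches left out by the plus strand in each copy included one part of ITS2. In RNA45SN2 no plus-strand site lay over bases 514 to 712 of ITS2, a stretch of 199 bases, and in RNA45SN3 none lay over bases 499 to 717, a stretch of 219. In RNA45SN1 the stretch ran from base 503 to base 1021. That copy adds little here, since 935 of the 1160 ITS2 bases compared between copies had no plus-strand site in it. Minus-strand sites covered most of these stretches of ITS2, with gaps of 19 bases between them. Bases without a plus-strand site in all 3 copies numbered 199 in ITS2. In 28S they numbered 228 of 5054, in the 5' external spacer 225 of 3631 and in the 3' external spacer 193 of 361. There were 32 of 1071 in ITS1, and 0 in 18S and 5.8S. A stretch of 28S was open too, at bases 3076 to 3234 in RNA45SN1, 3074 to 3172 in RNA45SN2 and 3056 to 3174 in RNA45SN3.

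The sites over the units were wide. Their median width was 61 bases and their mean 249.7, and their quartiles were 41 and 221 bases. The other 17375 sites of the list had a median of 21 bases, the smallest width in the list, and a mean of 32.73. A width of 21 bases was found for 22.8% of the sites over the units and for 75.0% of the others. More than 500 bases were spanned by 40 of the 250 sites, or 16.0%, and by 18 of the others, or 0.104%. Of those 18, 14 lay on chromosome 21 in the stretch from 50000 bases before RNA45SN2 to 50000 bases after RNA45SN1, whose 718 sites outside the units had a median width of 41 bases, and 2 lay over the mitochondrial ribosomal RNA genes. The 21 sites over those mitochondrial genes had a median width of 181 bases, wider than the sites over the 45S units. With 1.42% of the sites, the units thus held 9.89% of the summed width of the list. The difference was not tested, for the reason given above.

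**Figure D3:**
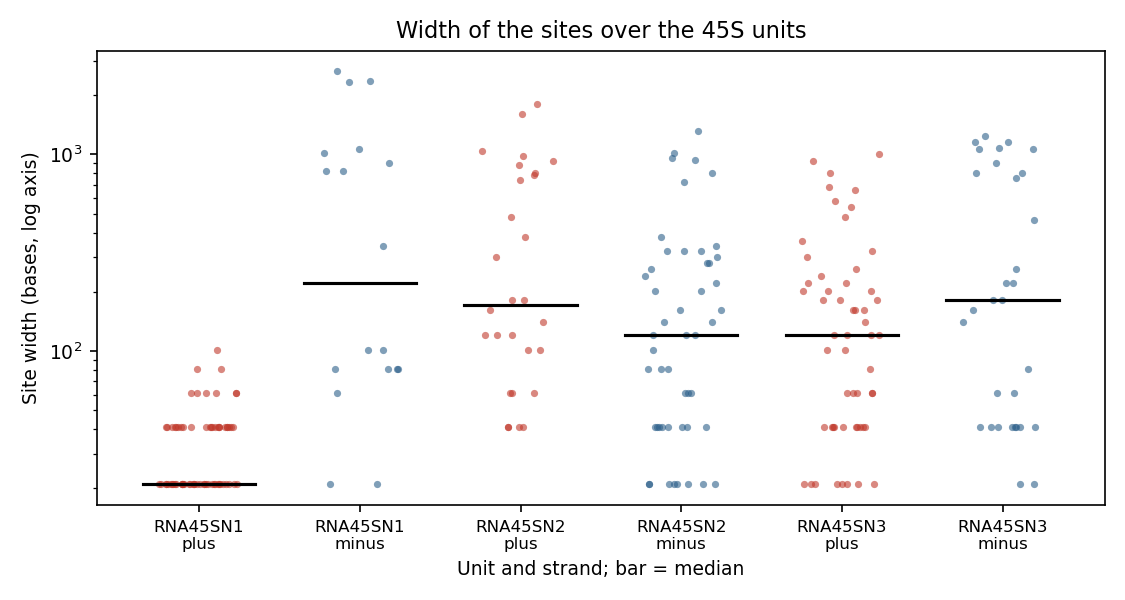
Each point is the width in bases of 1 site on a log axis, by unit and strand, and the bar is the median. Plus-strand sites of RNA45SN1 stay at or below 101 bases, while the other 5 groups each reach 1001 bases or more.

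Width depended on the copy and the strand. Median widths on the plus and the minus strand were 21 and 221 bases in RNA45SN1, 171 and 121 in RNA45SN2, and 121 and 181 in RNA45SN3. In RNA45SN1 37 of 69 plus-strand sites had the smallest width, and none was wider than 101 bases. The 5 widest sites of the whole list, and 15 of its 20 widest, lay over the units. The widest, of 2641 bases, was on the minus strand at chr21:8440680-8443320 and ran from ITS2 into 28S. The next, of 2361 bases, was on the minus strand at chr21:8433220-8435580, over the 5' external spacer of RNA45SN1. The third, of 2321 bases at chr21:8437400-8439720, ran from 18S into ITS1. In RNA45SN2 the widest were 2 plus-strand sites, of 1801 bases over the 5' external spacer at chr21:8206180-8207980 and of 1601 bases over 18S and ITS1 at chr21:8210160-8211760. A minus-strand site of 1321 bases at chr21:8210440-8211760 followed. In RNA45SN3 the widest were minus-strand sites, 1 of 1241 bases over 18S and ITS1 at chr21:8393480-8394720 and 2 of 1161 bases, at chr21:8390000-8391160 over the 5' external spacer and at chr21:8392300-8393460 across the start of 18S. In all 3 copies each border between neighbouring parts lay inside a site of more than 500 bases, except the last. No site crossed the border of 28S and the 3' external spacer.

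With the strands merged, neighbouring sites were mostly separated by 1 step of the grid. Over both strands RNA45SN1 had 17 stretches without a site, RNA45SN2 21 and RNA45SN3 30, with a median of 19 bases in each. Stretches of 19 bases, a single empty step, made up 13 of 17, 15 of 21 and 21 of 30. The longest were 59, 79 and 99 bases. On single strands it varied, from 17 of 70 stretches of 19 bases on the plus strand of RNA45SN1, where the median was 79 bases, to 13 of 17 on its minus strand. The longest run of bases without a break was 2641 bases in RNA45SN1, 3401 in RNA45SN2 and 1241 in RNA45SN3.

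**Figure D4:**
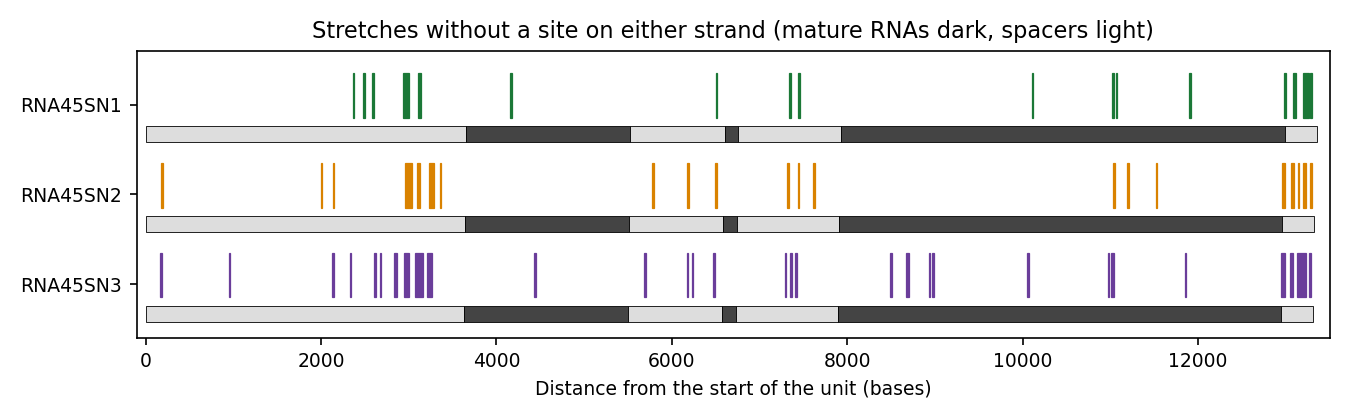
Coloured marks show stretches without a site on either strand against the distance in bases from the start of each unit, above a bar with mature RNAs dark and spacers light. The marks gather in the later part of the 5' external spacer, short of its end, and in the 3' external spacer of all 3 units. They are rare in 18S.

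Some stretches without sites recurred at matched places. With distances counted from the start of each part, over 13303 bases that the copies have in common, 90.0% of bases were covered in all 3 copies and 168 bases were uncovered in all 3. Of those 168 bases 78 were in the 5' external spacer, 65 in the 3' external spacer, 17 in 28S, 4 each in ITS1 and ITS2, and 0 in 18S. They were 38.9% of the uncovered bases of RNA45SN1, 29.0% of those of RNA45SN2 and 18.5% of those of RNA45SN3. The copies differ in length, were not aligned by sequence and sit differently on the grid. With a tolerance of 1 step of 20 bases, 10 of the 17 uncovered stretches of RNA45SN1 had one beside them in RNA45SN2 and 14 had one in RNA45SN3. Of the 21 stretches of RNA45SN2, 10 had one in RNA45SN1 and 15 in RNA45SN3. Of the 30 of RNA45SN3, 15 had one in RNA45SN1 and 14 in RNA45SN2. The share that would match by position alone was not worked out. Matches come easily in the 3' external spacer, where 43.8% of bases had no site.

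The 5' external spacer had the 2 longest shared stretches. The first ran over bases 2954 to 2998, inside an uncovered stretch of 59 bases in RNA45SN1, 79 in RNA45SN2 and 59 in RNA45SN3. The second ran over bases 3100 to 3132, inside stretches of 39, 39 and 99 bases, and holds the first 30 bases of the MIR10396B hairpin printed above. In 28S the shared stretch was bases 3136 to 3152. In the 3' external spacer, bases 101 to 128 and 240 to 268 were free of sites in all copies.

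The strand of the breaks in 18S differed between copies. In RNA45SN1 bases 506 to 524 of 18S had no site on either strand, and in RNA45SN2 the plus strand alone broke, at bases 511 to 529. A later break lay at bases 791 to 809 on the minus strand of RNA45SN2 and at bases 796 to 814 on both strands of RNA45SN3. In RNA45SN2 each break was bridged by the other strand, so its 18S was covered in full. The plus strand of RNA45SN3 broke once more, at bases 1176 to 1194, and the scattered plus-strand sites of RNA45SN1 left 18S open at many places.

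Coverage dropped at both ends of the units. In the 1000 bases ahead of the start, sites covered 36.4% of RNA45SN2's flank, 36.4% of RNA45SN3's and 32.4% of RNA45SN1's. From 4001 to 10000 bases ahead of the start, every window of 1000 bases had between 0% and 20.7% under a site. The first 1000 bases after the end were covered over 16.5% to 22.5%. The windows between 2001 and 4000 bases after the end had at most 8.4% covered, and coverage rose again to 30.7% to 47.9% between 7001 and 8000 bases after it. The whole spacer of 30878 bases between RNA45SN3 and RNA45SN1 held 196 sites with a median width of 21 bases and a maximum of 201, and 17.1% of its bases were covered. The more fully covered strand of each unit was also the more fully covered one after its end. In the 10000 bases after RNA45SN1 the minus strand covered 25.4% and the plus strand 1.89%, whereas after RNA45SN2 the plus strand covered 21.3% and the minus strand 4.77%.

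**Figure D5:**
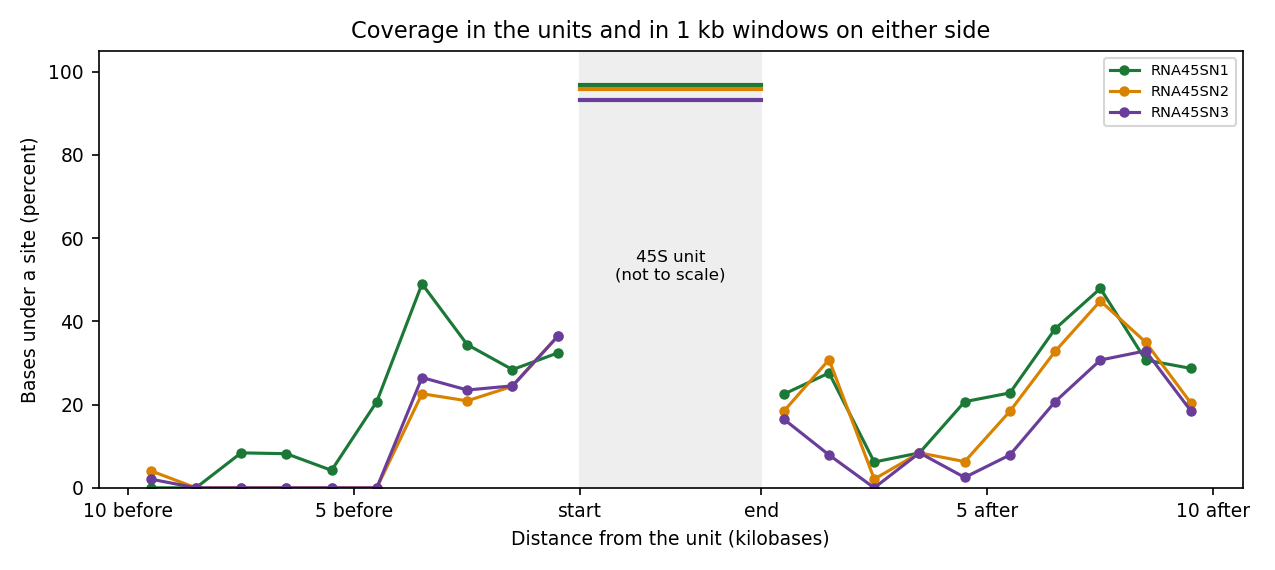
Points give the percent of bases under a site on either strand in windows of 1 kilobase before the start and after the end of each unit, and horizontal lines the value over the whole unit, whose length is not to scale. The units stand at 93.2% to 96.7%, and the highest window outside them is at 49.0%.

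Other copies of ribosomal RNA sequence gave a scale for these values. On the same chromosome arm, the 18S pseudogene RNA18SP5 at chr21:8253842-8255704 had sites over 97.7% of its bases. The 5.8S pseudogene RNA5-8SP10 had them over 100% and the 28S pseudogene LOC110467529 over 98.6%. Of 18 ribosomal RNA pseudogenes on autosomes other than 21 and 22, 14 had a site. The highest coverage among the 18 was 48.0%, in RNA5-8SP2 on chromosome 16, a pseudogene of 5.8S with 152 bases. Among those of 18S and 28S it was 41.6%, in LOC110467538 on chromosome 20, a pseudogene of 18S. The 2 ribosomal RNAs of mitochondria, which are made from another genome, reached 93.9% (RNR1) and 96.3% (RNR2), and the median width of their minus-strand and plus-strand sites was 301 and 161 bases, over 6 and 15 sites. These values are set side by side without a test.

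Most of these sites were assigned by the list to genes that are not named for ribosomal RNA. Of the 250 sites, 219 (87.6%) stand as intronic, 18 as exonic and 13 as 5' UTR, the last all annotated as promoter. ENSG00000280441.3 was assigned 165 of them, in RNA45SN1 and RNA45SN3. ENSG00000278996.1 was assigned 70, all in RNA45SN2. RNA5-8SN1, the gene of 5.8S in RNA45SN1, was assigned 3 sites, and RNA5-8SN2, RNA5-8SN3, MIR3648-1, ENSG00000280614.1 and ENSG00000280800.1 were assigned 2 each. MIR3648-1, a microRNA gene in the 5' external spacer of RNA45SN2, was covered over 100% on the plus strand and 41.1% on the minus strand. All 91 sites over 28S were listed as intronic.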

How the data were processed

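The labels' titles put 2 libraries in the anti-P5CS group and 2 in the IgG group. Tools and build, per the submitters' processing notes, were fastp 0.23.2, STAR 2.7.10a and hg38, with no role stated. How sites were called, whether IgG was used and whether replicates were pooled is not stated. The table deposited by the authors holds 17625 sites with start, end and width in bases, strand and annotation. Each start and each end is a multiple of 20 bases, so a site of 1 step has a width of 21. Depth per library is unknown, and the number of columns with values per library is 0.

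Members overlap a unit by at least 1 base. Borders of the mature RNAs came from RefSeq for GRCh38.p14, the same build family, and hairpin sequences from RefSeq's microRNA table. A base counts as covered when a site includes it. Shares of sites, and covered shares of bases in the checks of processing, have exact binomial intervals at 95%. No test between groups was possible, and sites are not replicates. The 3 units, parts and lists were chosen with earlier results of these data known. Named were the units, their mature genes, other RefSeq genes inside them (14 genes in all), the assigned genes with most sites, ties included, and the 3 widest sites of each unit. MIR6724-4, MIR10396A and the pseudogenes are not covered by that rule and were picked with their values known. Coverage counting was tested on simulated data. Python 3.11.15, pandas 2.3.3, numpy 2.4.6, scipy 1.17.1 and matplotlib 3.10.9 were used.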

Additional observations from a re-analysis of the deposited data

How the results depend on the processing

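No paired analysis was possible because the list has no columns per library, and no library could be left out for the same reason. Requiring a site to lie for the larger part or wholly in a unit, and counting pairs on both strands once (for the strand share, leaving them out) moved neither the strand share nor the median width beyond its interval, and the number of sites stayed within 1.5 times. Reading starts as counted from 0, an alternative chosen after seeing the data, moved no covered share of a unit or part beyond its interval. The intervals of covered shares count bases as independent, and that of the median width counts sites so. Neither are independent, so these intervals are too narrow and serve only as a yardstick for the changes. Without RNA45SN1, RNA45SN2 or RNA45SN3 in turn, 163, 173 and 164 sites remained, the minus-strand share was 49.1%, 28.3% and 40.9%, and the median width 141, 41 and 51 bases. With only sites wider than the smallest the median width was 121 bases and 28S coverage 97.4%, and the other coverage values and the strand share stayed within their intervals.

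Given in the order RNA45SN1, RNA45SN2 and RNA45SN3, covered shares were 17.6%, 92.1% and 82.5% with plus-strand sites only, and 96.7%, 85.8% and 93.2% with minus-strand sites only. They were 24.8%, 49.7% and 47.9% with only sites of at most 500 bases, and 94.1%, 92.3% and 88.7% with each site shortened by 10 bases at both ends.

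Given in the order of the precursor from the 5' to the 3' external spacer, with 18S, ITS1, 5.8S, ITS2 and 28S between, shares over the 3 units were as follows. Plus-strand sites alone gave 56.8%, 74.9%, 60.8%, 79.0%, 60.1%, 69.1% and 25.2%. Minus-strand sites alone gave 86.0%, 99.0%, 90.5%, 100%, 93.4%, 96.5% and 44.8%. Sites of at most 500 bases gave 51.3%, 15.6%, 53.5%, 45.6%, 49.3%, 36.6% and 56.2%, which puts 18S lowest and the 3' external spacer highest. Shortened sites gave 88.8%, 98.6%, 90.3%, 100%, 91.1%, 95.5% and 34.8%. The share covered in all 3 copies was 89.4% by distance from the start of the unit, 82.4% with minus-strand sites and 16.5% with plus-strand sites. On 1 strand a stretch covered without a break is itself 1 wide site, so the limit of 500 bases removes the most fully covered stretches by construction. Without counts, no value here has an error from sequencing depth.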
